A study of Sus scrofa with 6 samples.

Results

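Immediate early transcription factors are the genes that a cell switches on first after a stimulus, from transcription factors that are already present and without new protein synthesis. In skeletal muscle they are known to respond to contraction, stretch, injury, hormones and stress. Phosphorylation of factors such as SRF, its ELK partners and CREB through MAPK signaling starts their transcription. Their proteins then bind to the promoters of later genes, and their mRNAs decay rapidly. The 10 genes described here were *FOS*, *FOSB*, *JUN*, *JUNB*, *EGR1*, *EGR2*, *EGR3*, *ATF3*, *IER2* and *NR4A1*. They were matched by their pig symbols, and all 10 were found once among 30476 Ensembl genes and passed the filter on low counts.

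The longissimus dorsi, the long muscle that runs along the spine, was profiled by RNA-seq in 3 libraries of adipocyte-specific UCP1 KI pigs and in 3 libraries of WT pigs, all aged 6 months. UCP1 is the mitochondrial uncoupling protein of brown fat, and the knock-in is directed to adipocytes, so that muscle fibres are not its intended site. The promoter of the knock-in, the number of founder clones, the sex of the pigs and their kinship are not given in the sources used here. The labels number the libraries as replicates without naming animals, and each is taken here as 1 pig, so that p values measure the spread between these libraries. *UCP1* had no identifier under its symbol and was not analysed here, so the genotype was not checked against it.

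Counts on genes summed to between 30220951 and 35066624 per pig, and the detection limit, set at 3 reads for counting error only, was at most 0.1096 reads per 1000000 (CPM). WT replicate 2 stood apart, with 56.5% of its counts in its 20 most abundant genes against 39.0% to 44.8% in the other pigs and a TMM scaling factor of 0.781. The muscle markers *ACTA1*, *CKM*, *DES*, *TNNT3*, *TNNC2* and *TNNT1* summed to between 62889 and 119317 CPM and were abundant in every pig, whereas *MB*, *MYLPF* and *MYH7* were found under no identifier. Markers of other cell types were also measured. Those of fibroblasts summed to 199 to 367 CPM in UCP1 KI pigs and 578 to 927 CPM in WT pigs, and those of red blood cells to 11.6 to 76.5 CPM and 106 to 181 CPM. Both sums were lower in every UCP1 KI pig. Sums for endothelium, leukocytes, adipocytes, smooth muscle and pericytes, and Schwann cells overlapped between the groups. Of the 5 leukocyte markers tested, all 5 had a log2 fold change above 0 (median 0.79) and 1 was called, *CD3E*, higher at 1.84 with overlapping groups. Of the 4 adipocyte markers tested, all 4 were below 0 (median -1.18) and 0 were called, and their sum was 282 CPM in WT replicate 2 against 42.8 to 87.3 CPM in the other pigs.

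To see whether adipocyte-specific UCP1 KI went with a different level of these factors in muscle, each gene was compared between the groups with edgeR's quasi-likelihood test on the deposited counts. Calls required an unadjusted p under 0.05 together with a log2 fold change beyond 0.5 in either direction. *FOSB*, *EGR2*, *IER2* and *NR4A1* fell in UCP1 KI pigs, to between 0.359 and 0.486 of their WT mean level. *ATF3* was also lower in every UCP1 KI pig, but it did not pass the p limit. *FOS*, *JUN*, *JUNB*, *EGR1* and *EGR3*, which include the best-known members of the class, were not called and had overlapping groups. Thus 4 of the 10 genes were called, all 4 lower, where 8.19% of the 13402 genes tested were called, 4.34% lower and 3.84% higher. With Benjamini-Hochberg adjustment over all genes tested, 0 of the 10 had an adjusted p under 0.05 in edgeR (4 had an unadjusted p under 0.05), where the lowest was 0.583. DESeq2 on the same genes gave 1 adjusted p under 0.05, that of *NR4A1* at 0.0374, where 127 of the 13374 genes given an adjusted p passed (0.95%).

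**Figure D1:**
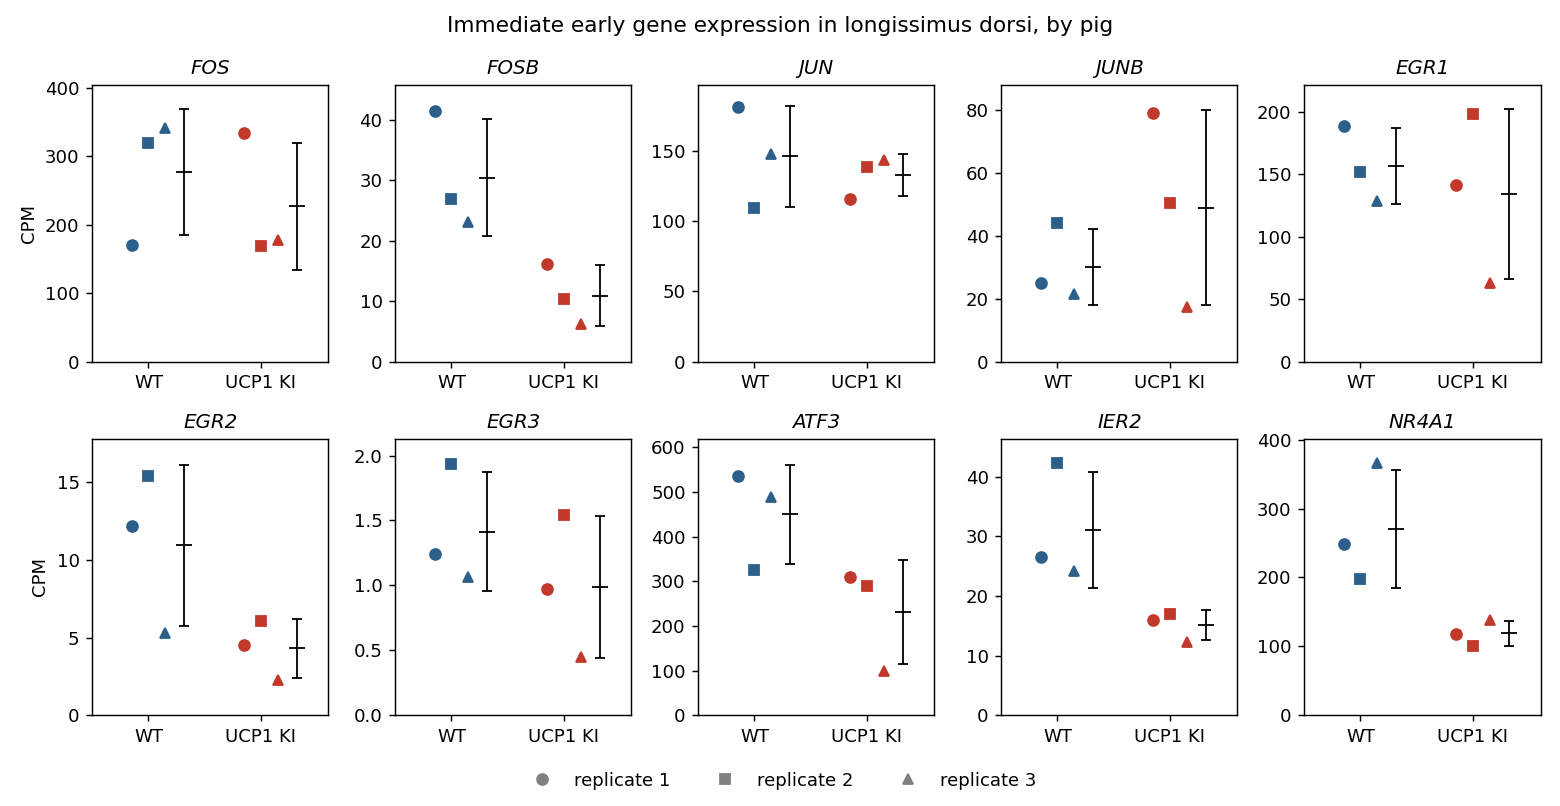
Expression of the 10 genes in CPM (vertical axes, from 0, a scale for each gene) in WT pigs (blue) and UCP1 KI pigs (red). Marker shapes give the replicate number, and black bars give the mean ± SD of 3 pigs. The groups are separate for *FOSB*, *ATF3*, *IER2* and *NR4A1* and overlap for the other 6 genes.

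The AP-1 proteins of the FOS and JUN families bind DNA as dimers through a basic leucine zipper. *FOSB* (ENSSSCG00000031616, chromosome 6, 51836780 to 51844531 of Sscrofa11.1) encodes a FOS protein whose truncated form is long-lived. It was measured at 16.2, 10.4 and 6.198 CPM in UCP1 KI replicates 1 to 3, and at 41.35, 26.8 and 23.1 CPM in WT replicates 1 to 3. All UCP1 KI pigs were below all WT pigs, and the lowest was UCP1 KI replicate 3. It averaged 10.9 ± 5.005 CPM (SD, n = 3) among UCP1 KI pigs and 30.4 ± 9.66 CPM (SD, n = 3) among WT pigs. The estimated log2 fold change was -1.48 (standard error 0.40, 95% interval -2.41 to -0.55), with an unadjusted edgeR p of 0.00660 that became 0.583 after adjustment. *FOSB* was called in each of the 6 fits that left out 1 pig, between -1.87 and -1.19.

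*FOS* itself (ENSSSCG00000002383, chromosome 7, 98449508 to 98451971), the classical partner of JUN, did not follow *FOSB*. Its levels were 334, 169 and 178 CPM in UCP1 KI pigs and 171, 319 and 341 CPM in WT pigs. Each group held 1 pig on the side of the other group, UCP1 KI replicate 1 high and WT replicate 1 low. The log2 fold change was -0.29 (standard error 0.39, 95% interval -1.19 to 0.61, unadjusted p = 0.480 in edgeR), smaller than the spread between pigs. It was -0.67 without UCP1 KI replicate 1, -0.54 without WT replicate 1 and -0.11 without WT replicate 3, and it was called in 0 of the 6 fits that left out 1 pig.

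*JUN* (ENSSSCG00000031912, chromosome 6, 153686425 to 153687635), which can pair with itself or with FOS proteins, was measured at 115, 138 and 143 CPM in UCP1 KI pigs and 181, 109 and 147 CPM in WT pigs. It was the steadiest of the 10 genes, with a highest pig 1.65 times the lowest, and WT replicates 1 and 2 enclosed all UCP1 KI pigs. The estimate of -0.14 for the log2 fold change (standard error 0.26) was 0.090 when libraries were scaled by size only and 0.039 without WT replicate 1.

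*JUNB* (ENSSSCG00000013735, chromosome 2, 66214086 to 66219435), a weaker activator that can oppose JUN and is known to maintain muscle mass, was the only one of the 10 genes with a log2 fold change above 0. Its levels were 79.0, 50.2 and 17.2 CPM in UCP1 KI pigs and 24.8, 43.9 and 21.4 CPM in WT pigs. UCP1 KI replicates 1 and 2 were above all WT pigs, and UCP1 KI replicate 3 was below all of them. The log2 fold change was 0.70 (standard error 0.54, unadjusted p = 0.228 in edgeR) and it was not called. It passed both limits without UCP1 KI replicate 3, at 1.11 with an unadjusted edgeR p of 0.0288, and was 0.17 without UCP1 KI replicate 1.

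*ATF3* (ENSSSCG00000015595, chromosome 9, 130772259 to 130829678) encodes a stress-induced leucine zipper protein that can pair with JUN proteins and often represses. It was measured at 309, 288 and 98.5 CPM in UCP1 KI pigs and 536, 324 and 489 CPM in WT pigs. The groups did not overlap, but UCP1 KI replicate 1 and WT replicate 2 lay close together. It averaged 232 ± 116 CPM (SD, n = 3) among UCP1 KI pigs and 449.9 ± 111 CPM (SD, n = 3) among WT pigs, with an estimated log2 fold change of -0.96 (standard error 0.45, 95% interval -2.01 to 0.10). The unadjusted p was 0.0694 in edgeR and 0.0450 in DESeq2. Without UCP1 KI replicate 3 the log2 fold change was -0.59.

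The EGR proteins are zinc finger factors that bind GC-rich promoter sites. *EGR2* (ENSSSCG00000010224, chromosome 14, 66280665 to 66291308), known for its role in myelinating Schwann cells, was measured at 4.53, 6.09 and 2.30 CPM in UCP1 KI pigs and 12.2, 15.4 and 5.27 CPM in WT pigs. WT replicate 3 was below UCP1 KI replicate 2, so that the groups overlapped by 1 pig. Its log2 fold change was -1.34 (standard error 0.49, 95% interval -2.49 to -0.20), with an unadjusted edgeR p of 0.0267 that became 0.583 after adjustment. *EGR2* was the least stable of the 4 calls. It was no longer called with library size only (-1.07) or when UCP1 KI replicate 1 (-1.38) or 3 (-1.05), or WT replicate 1 (-1.27) or 2 (-1.02), was left out. In the RefSeq annotation *ADO* overlaps this interval, to an extent not measured here, so reads of *EGR2* and *ADO* may not be fully separable. Summed Schwann cell markers were 12.8 to 35.02 CPM in UCP1 KI pigs and 10.4 to 31.5 CPM in WT pigs, with *PRX* at 0 in 5 of the 6 pigs, and overlapped between the groups.

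*EGR1* (ENSSSCG00000014336, chromosome 2, 140440829 to 140445302), the most widely induced EGR gene, was measured at 142, 198 and 62.9 CPM in UCP1 KI pigs and 189, 152 and 128 CPM in WT pigs. The highest and the lowest of the 6 pigs were both UCP1 KI pigs. The log2 fold change of -0.22 (standard error 0.41) was 0.013 with library size only and 0.11 without UCP1 KI replicate 3. *EGR3* (ENSSSCG00000009630, chromosome 14, 6943184 to 6948507), known for muscle spindle development, had the fewest reads, namely 30, 55 and 17 for the UCP1 KI pigs and 45, 53 and 32 for the WT pigs. Both groups overlapped, and the log2 fold change of -0.52 had a 95% interval from -1.79 to 0.75, which spans a fall larger than that of *FOSB* as well as a rise. The estimate was -0.997 without UCP1 KI replicate 2 and -0.17 without UCP1 KI replicate 3, and *EGR3* was not called in either fit.

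*NR4A1* (ENSSSCG00000031321, chromosome 5, 17403088 to 17407918) encodes an orphan nuclear receptor that muscle induces after exercise and adrenergic stimulation and that is known to promote genes of glucose use. It was measured at 118, 100.35 and 138 CPM in UCP1 KI pigs and 248, 198 and 366 CPM in WT pigs. The UCP1 KI pigs lay close together and the highest of them was well below the lowest WT pig. It averaged 119 ± 18.7 CPM (SD, n = 3) among UCP1 KI pigs and 271 ± 85.9 CPM (SD, n = 3) among WT pigs, a 2.28-fold difference. The estimated log2 fold change was -1.19 (standard error 0.30, 95% interval -1.89 to -0.49). Its unadjusted edgeR p of 0.00472 was the smallest of the 10 genes and became 0.583 after adjustment, and it was called with each pig left out, between -1.37 and -0.91. The RefSeq annotation of this assembly lists *NR4A1* as a pseudogene, whereas the deposited table counts reads on it as an Ensembl gene.

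*IER2* (ENSSSCG00000013753, chromosome 2, 65909638 to 65912491) encodes a small nuclear protein that acts as a transcriptional regulator. Its levels were 16.04, 17.0 and 12.2 CPM in UCP1 KI pigs and 26.6, 42.3 and 24.3 CPM in WT pigs. The UCP1 KI pigs again varied little and stayed below all WT pigs. Expression averaged 15.1 ± 2.52 CPM (SD, n = 3) among UCP1 KI pigs and 31.0 ± 9.78 CPM (SD, n = 3) among WT pigs, with an estimated log2 fold change of -1.04 (standard error 0.29, 95% interval -1.72 to -0.36). The unadjusted edgeR p of 0.00773 became 0.583 after adjustment. It was called with each pig left out, between -1.19 and -0.75, the latter without WT replicate 2.

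**Figure D2:**
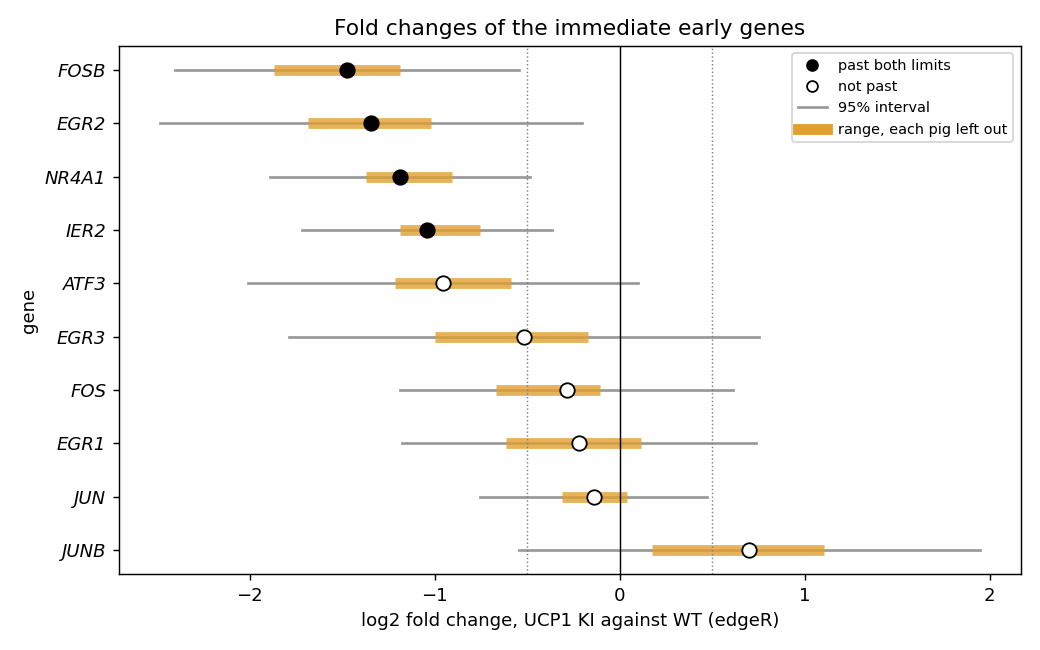
Log2 fold change of each gene, UCP1 KI against WT, from edgeR (points; filled where both limits were passed), with its 95% interval (grey) and the range over the 6 fits that left out 1 pig (orange). Dotted lines mark the fold change limit of 0.5 in either direction. *FOSB*, *EGR2*, *NR4A1* and *IER2* are filled, and the orange range crosses 0 for *EGR1* and *JUN*.

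Of the 10 genes, 9 had a log2 fold change below 0, where 51.3% of all genes tested were below 0. With library size only these were 7 of the 10 and 31.9% of all genes tested. Library size only moved the median of all genes by 0.25 on the log2 scale. Taking this shift off nearly restores the main scaling, so the return to 9 of the 10 below 0 is no separate result. The median log2 fold change of the 10 genes was -0.74, beside -0.02 for all genes tested. It was -0.40 without UCP1 KI replicate 3 and between -1.04 and -0.40 over the fits that left out 1 pig. The genes without overlap were *FOSB*, *ATF3*, *IER2* and *NR4A1*, all 4 lower in every UCP1 KI pig, a pattern found in 7.69% of the genes tested. In the two-sided exact permutation test each of them had p = 0.1, the lowest value that this design can reach.

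A single pig carried much of the low end. UCP1 KI replicate 3 had the lowest level of 7 of the 10 genes, and 1 gene there, *JUN*, was above its own mean over the 6 pigs. The mean of its 10 values was -0.94 on the log2 scale relative to the gene means, against -0.02 and -0.09 in UCP1 KI replicates 1 and 2. The WT pigs had means of 0.40, 0.46 and 0.19, with 8, 9 and 6 genes above their mean. The lows of *NR4A1*, *JUN* and *FOS* were in other pigs. Without UCP1 KI replicate 3, *FOSB*, *IER2* and *NR4A1* were still called, *EGR2* was not, and *JUNB* was called higher.

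**Figure D3:**
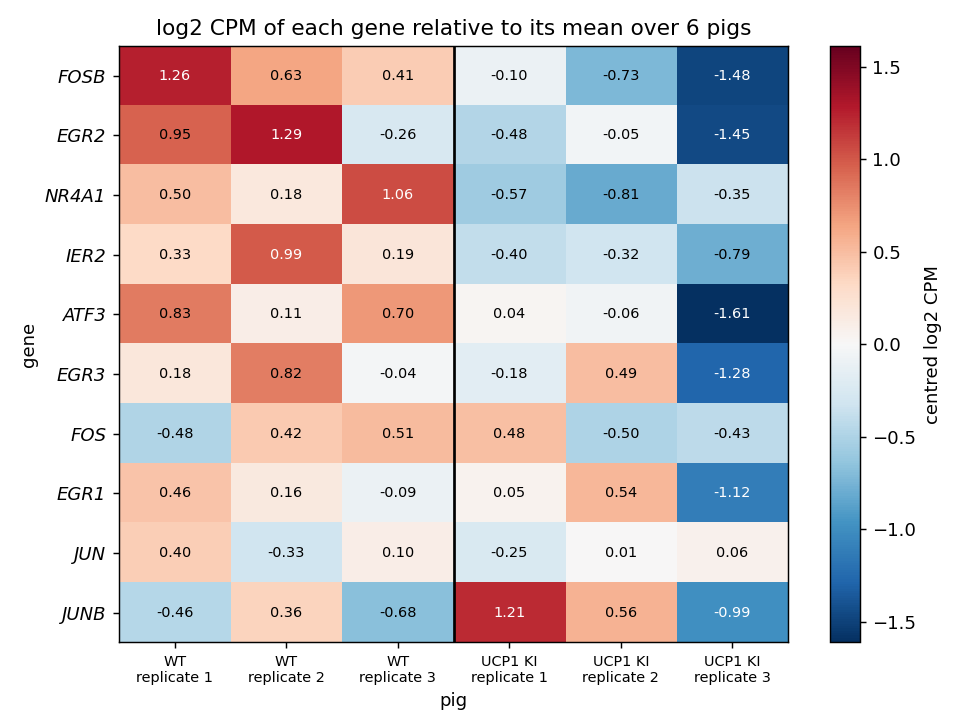
Heatmap of log2 CPM of each gene (rows, ordered by fold change) in each pig (columns, WT left of the line and UCP1 KI right), relative to the mean of that gene over the 6 pigs. The column of UCP1 KI replicate 3 holds the lowest value in 7 of the 10 rows.

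The genes differed in how much they varied between pigs of the same group. The pooled SD of log2(CPM + 1) within groups was 0.86 for *JUNB*, 0.70 for *ATF3*, 0.65 for *EGR2*, 0.63 for *EGR1*, 0.55 for *FOS* and 0.54 for *FOSB*. It was 0.35 for *NR4A1*, 0.34 for both *EGR3* and *IER2*, and 0.28 for *JUN*. *EGR3* lay between 0.450 and 1.94 CPM, where the added 1 CPM narrows the SD, and its highest pig was 4.30 times its lowest, against 2.01 times for *FOS*. The median was 0.54 for the 10 genes and 0.33 for all genes tested, and 9 of the 10 were above the latter. *NR4A1* and *IER2* were thus called with a spread near that of the typical gene, whereas *FOSB* and *EGR2* were called with a larger spread.

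Ratios of reads between members were then taken within each pig, which does not depend on how libraries are scaled. The ratio of *FOS* to *FOSB* reads was 16.2 to 28.6 in UCP1 KI pigs and 4.13 to 14.8 in WT pigs, so it was higher in every UCP1 KI pig. The ratio of *JUN* to *NR4A1* reads was 0.976 to 1.38 in UCP1 KI pigs and 0.403 to 0.730 in WT pigs. The ratio of *EGR1* to *EGR2* reads was 27.3 to 32.5 in UCP1 KI pigs and 9.90 to 24.3 in WT pigs. These pairs were picked after their values were seen, from the 12 of 45 pairs (26.7%) without overlap between the groups, and are given as a description. Of all pairs of tested genes with reads in every pig, 14.7% were without overlap. Pairs that share a gene are not independent of each other. With 3 pigs against 3 a two-sided exact permutation test cannot give a p below 0.1, so no ratio could pass one.

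Genes of the same pathway were taken from 4 lists. Of 80 such genes 73 were found and tested, and 6 were called, 1 higher and 5 lower, which is 8.22% beside 8.19% of all genes tested. With library size only 6 were higher and 2 lower, where 929 of all genes tested were higher and 195 lower. The count was 3 without UCP1 KI replicate 2, which is 4.11% beside 4.92% of all genes tested. It was 3 without WT replicate 2 (4.11% beside 5.19%). Without WT replicate 3 it was 10 (13.7%), where 1541 of all 13864 genes tested were called. Of the immediate early genes outside the 10, 3 of 23 fell and 0 rose, with a median log2 fold change of -0.12 that was 0.033 with library size only. Library size only gave 1 higher and 1 lower call in this list, and leaving out UCP1 KI replicate 3 gave 2 higher and 2 lower. *KLF4*, a zinc finger factor of endothelium and smooth muscle, was measured at 46.0, 34.8 and 37.3 CPM in UCP1 KI pigs and 110.1, 99.0 and 59.8 CPM in WT pigs, with a log2 fold change estimated at -1.19 (unadjusted p = 0.00383 in edgeR). *KLF2*, its flow-responsive relative in endothelium, had -0.92, and the kinase *SGK1*, a known glucocorticoid target, had -1.13 with overlapping groups. *ARC*, a regulator of synaptic plasticity, had the highest value of the list, 1.80 with a standard error of 1.57, and was at 34.8 CPM in UCP1 KI replicate 1 and 0 in UCP1 KI replicate 3. Summed endothelial markers were 299 to 561 CPM in UCP1 KI pigs and 281 to 499.6 CPM in WT pigs, overlapping between the groups. Of the 5 endothelial markers 1 was called, *TEK*, which was higher in every UCP1 KI pig with a log2 fold change of 1.20, opposite in sign to *KLF2* and *KLF4*. Summed markers of smooth muscle and pericytes were 241 to 338 CPM and 288 to 641 CPM, with all 5 below 0 in log2 fold change and 0 of 5 called. Their part in these results was not tested.

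Of 17 feedback inhibitors 2 fell and 0 rose, where 4.34% of all genes tested were called lower and 3.84% higher. Their median log2 fold change was -0.14, or 0.16 with library size only. Leaving out WT replicate 1 or WT replicate 2 gave 1 lower call each. Both library size only and the fit without UCP1 KI replicate 3 gave 2 higher calls and 1 lower call here, and DESeq2 and the fit with no filter each gave 1 higher and 2 lower. *DUSP1*, the phosphatase that switches off MAPKs and is itself an immediate early gene, was measured at 147, 182 and 158 CPM in UCP1 KI pigs and 352, 471 and 305 CPM in WT pigs. Its estimated log2 fold change was -1.21 (standard error 0.27), and its unadjusted edgeR p of 0.00217, the smallest among the 73 related genes, became 0.481 after adjustment. *NAB2*, a corepressor that EGR proteins induce and that restrains them, was measured at 6.99, 5.75 and 4.42 CPM against 10.6, 9.31 and 8.04 CPM in WT pigs, with an estimated log2 fold change of -0.71. *SOCS3*, the inhibitor of cytokine signaling, had the highest value of this list at 1.99, but it was not called (unadjusted p = 0.0834 in edgeR) and ranged from 5.01 to 165 CPM within UCP1 KI pigs.

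Among 9 other AP-1 and leucine zipper partners 0 were called in edgeR, with 0 at an unadjusted p under 0.05. Their log2 fold changes ranged from -0.27 for *BATF2* to 0.70 for *MAFF*, a small MAF protein, and their median was 0.14, or 0.44 with library size only, where 1 was called higher. Of 24 upstream kinases and transcription factors 1 rose and 0 fell, where 3.84% of all genes tested were called higher and 4.34% lower. Their median was 0.15, or 0.40 with library size only, where 2 were called higher. The gene that rose was *CRTC2*, the coactivator of CREB, at 25.9 ± 1.36 CPM (SD, n = 3) among UCP1 KI pigs and 18.2 ± 2.64 CPM (SD, n = 3) among WT pigs, whose log2 fold change of 0.51 and unadjusted edgeR p of 0.0492 were both just past the limits. The log2 fold change of *SRF*, the shared activator of many of these genes, was 0.15 with a standard error of 0.32. The kinase *MAPK3* was highest in this list at 1.01 and *CREB1* lowest at -0.64, and neither was called. With library size only, *KLF4*, *DUSP1* and *CRTC2* were still called, at -0.96, -0.92 and 0.79, whereas *KLF2*, *SGK1* and *NAB2* were not.

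**Figure D4:**
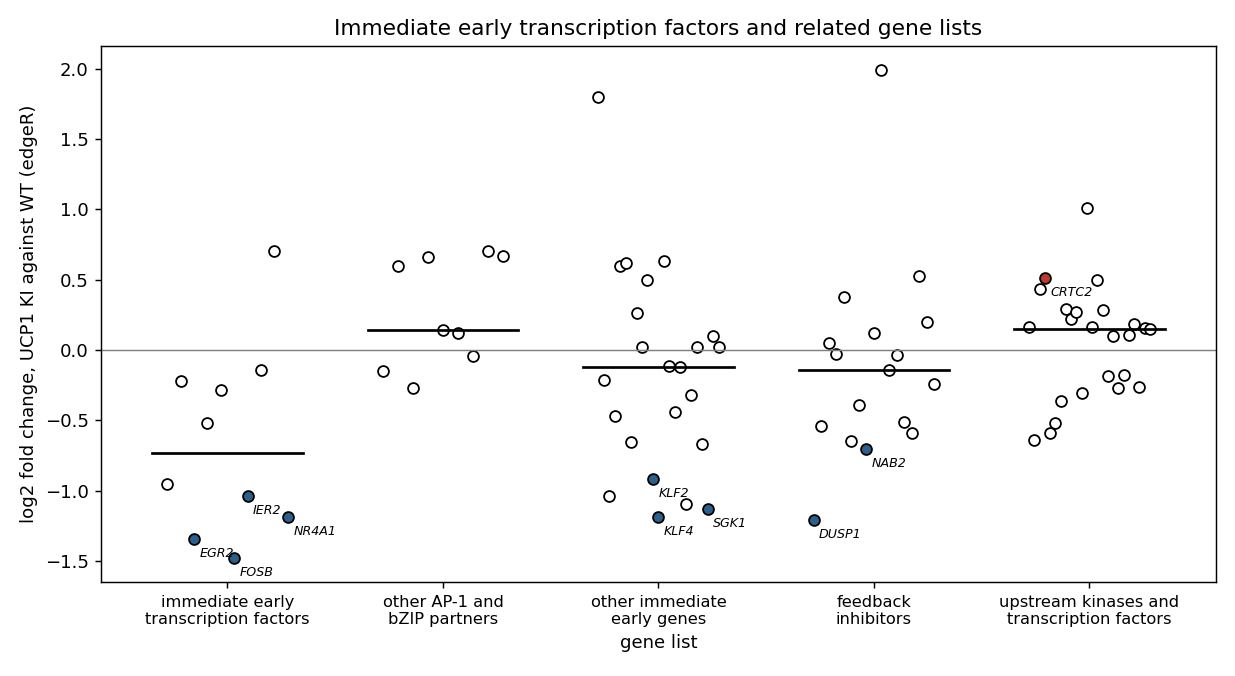
Log2 fold changes, UCP1 KI against WT, from edgeR (vertical axis) for the 10 immediate early transcription factors and 4 lists of related genes (horizontal axis). Each point is 1 gene, filled blue where called lower and red where called higher, and bars are medians. The bar of the first list is at -0.74, and those of the other lists lie between -0.14 and 0.15.

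To name the genes whose pattern across the 6 pigs was most like that of the 10, each gene's log2(CPM + 1) was centred on its mean and compared with the mean of the 10 by the root-mean-square difference. Among 11293 candidates with a symbol, where the median difference was 0.53, the nearest included *MMP19* (0.06), *SFMBT1* (0.11), *SLC7A2* (0.12) and *KTN1* (0.13). *MMP19*, a matrix metalloproteinase, was measured at 1.84, 1.63 and 0.477 CPM in UCP1 KI pigs and 2.37, 2.48 and 2.27 CPM in WT pigs. At such levels the added 1 CPM narrows the differences between pigs, and its highest pig was 5.21 times its lowest. The small difference of *MMP19* from the mean of the 10 depends on that addition. *SLC7A2*, a transporter of cationic amino acids, was at 14.3, 12.6 and 8.18 CPM and 20.6, 16.5 and 15.2 CPM. UCP1 KI replicate 3 was lowest for each of these 4 genes, and 0 of them were called. The 10 genes themselves differed from their own mean by 0.24 to 0.73, so the mean described no single member closely.

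The summed fibroblast markers were lower in every UCP1 KI pig. This was also true of *FOSB*, *ATF3*, *IER2*, *NR4A1* and *DUSP1*, which are named here for that pattern. Within UCP1 KI pigs the sum was highest in replicate 3, at 367 CPM. In that pig *FOSB*, *ATF3* and *IER2* were lowest of the group, *NR4A1* was highest and *DUSP1* was in between. Of the 5 markers, 3 were called lower, *COL1A1*, *COL3A1* and *LUM*. *DCN* and *PDGFRA* were not called and overlapped between the groups, with log2 fold changes of -0.39 and -0.08. The summed red blood cell markers, mostly *HBB*, were lower in every UCP1 KI pig as well, with 1 of 4 called lower and overlapping groups for *ALAS2*. In bulk muscle, fewer cells of a type and less RNA per cell cannot be told apart, and the part of these cells in the values of the 10 genes was not tested.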

How the data were processed

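Messenger RNA libraries of 3 UCP1 KI and 3 WT pigs were paired-end sequenced. In the table that the authors deposited, each pig has 1 column of raw counts per Ensembl gene, not normalized. Per the labels and the paper's methods, reads were checked with FastQC 0.11.2, trimmed with Trimmomatic 0.36, mapped with HISAT2 2.0 to Sscrofa11.1 and quantified with StringTie 1.3.3b. The annotation release, the counting program and its strand setting are not given in the sources used here.

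The whole table was fitted with edgeR 4.0.16 under R 4.3.3 (filterByExpr defaults, TMM factors, genotype as the only term, quasi-likelihood F test, two-sided). CPM used the TMM-scaled totals of the genes kept. The standard error is the log2 fold change divided by the square root of F. Alternatives were DESeq2 1.42.0, other scaling, other filters, the replicate number as a block and each pig left out. Scripts were tested on simulated data. The replicates of a group differed by far more than sampling noise.

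Ensembl identifiers were paired with symbols through a name table, and positions from RefSeq's annotation of Sscrofa11.1, matched by symbol. The 10 genes, the lists and the tests were chosen with earlier results of these data known. From each list, called genes and the extremes were named, beside *SRF*, which was added after its values were seen. The genes most like the 10 in pattern were the 5 nearest, of which 1 is not reported here. No sequences were printed.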

Additional observations from a re-analysis of the deposited data

How the results depend on the processing

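The call of *FOSB*, *IER2* and *NR4A1* was kept in all 12 alternative fits. The count of genes called among the 10, 4 in the main test, was 3 with library size only, 5 with DESeq2 and 3 to 4 with each pig left out, and 0 at an adjusted p under 0.05 in edgeR. Of all genes tested, 8.19% were called in the main test, 8.39% with library size only and 9.77% with DESeq2. With 1 pig left out, calls ran from 678 of 13782 genes tested to 1541 of 13864. At an adjusted p under 0.05 in edgeR, 0 of all 13402 genes tested passed. The median log2 fold change of the 10 ranged from -1.04 to -0.40 when 1 pig was left out. *JUN* changed sign with library size only (0.090) and without WT replicate 1 (0.039), with a range of -0.31 to 0.039 when 1 pig was left out, and *EGR1* with library size only (0.013) and without UCP1 KI replicate 3 (0.11), with a range of -0.61 to 0.11. Over all genes tested, the calls were 515 higher and 582 lower, and 929 higher and 195 lower with library size only. Leaving out UCP1 KI replicate 2 gave 678 calls, leaving out WT replicate 2 gave 718 and leaving out WT replicate 3 gave 1541, against 1097 with all pigs.

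Replicate numbers did not pair the pigs: deviations of same-numbered pigs from their group means correlated at 0.00, 0.09 and 0.28. A fit that took the replicate block into account called 4 of the 10 genes, the same 4. The block raised the other immediate early genes called from 3 to 7, all 7 lower, gave 1 AP-1 partner and 0 upstream genes, and in all called 11 of the 73 related genes (15.1%) where it called 8.31% of all genes. Among the AP-1 partners, 1 was called with library size only and 0 to 2 with each pig left out. Other immediate early genes called were 1 to 4 with each pig left out, with 1 when UCP1 KI replicate 2 or WT replicate 2 was absent. Feedback inhibitors called were 1 to 3, with 1 in the absence of WT replicate 1 or 2. Upstream genes called were 2 with library size only, 2 with DESeq2, 0 with at least 10 counts in every pig, and 0 to 3 with each pig left out. The causes of these changes were not tested. *EGR3* had the fewest reads of the 10 genes, 17 to 55 per pig.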
